A study of Sus scrofa with 12 samples.

Results

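Coding peaks in long internal exons are the m6A peaks of boar sperm mRNA whose midpoint lay in the coding sequence (CDS), more than 100 nt from both ends of the CDS, inside an exon of 400 nt or longer that was neither the first nor the last of its transcript. They were found from the annotation alone, on the longest coding RefSeq transcript of each gene in the pig assembly Sscrofa11.1. There were 3182 such peaks among 61902 peaks in all. The fresh sperm samples held 311, 415 and 402 of them, and the frozen-thawed samples 578, 764 and 712. All 3687 exons in which such a peak could lie had a median length of 682 nt, and the longest had 17966 nt. Peaks in internal exons under 400 nt of the same transcripts were the reference, with 903 to 1157 per sample in fresh and 1294 to 1592 in frozen-thawed sperm.

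The samples came from 3 mature Duroc boars. The sperm-rich ejaculates of each boar were divided equally into fresh sperm (Fs), which the study's methods say went straight into liquid nitrogen before RNA extraction, and frozen-thawed sperm (Fts). Fts semen was cooled to 17 °C, taken up in a lactose and egg yolk extender, cooled to 4 °C, diluted with the same extender plus glycerol at 6% and frozen over nitrogen vapour. By the methods both parts were thus frozen at some point, and both were freed of seminal plasma and treated with Triton X-100 against somatic cells. Each of the 6 samples gave 1 library after pull-down with an m6A antibody (IP) and 1 input library, and the labels number the samples 1 to 3 in each group without saying which boar each came from or whether ejaculates were pooled. The peak lists hold no read counts. The study lists read totals for each library, and these differ between the groups. Each Fts sample had fewer mapped IP reads than any Fs sample. A smaller share of its reads mapped, in IP and in input alike. The totals were not used in the counts here, so no peak count below is adjusted for depth.

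N6-methyladenosine (m6A) is a methyl mark on adenosine, put on mRNA in the nucleus by an enzyme complex around METTL3 and METTL14, removed by FTO and ALKBH5 and bound by YTH proteins. It sits mostly in the sequence RRACH, which is a purine, a purine, A, C and then A, C or T. Most internal exons of mammals are short, and m6A in other tissues is known to favour long internal exons and the last exon, while the protein complexes left at exon junctions after splicing keep the mark away from nearby bases. Mature sperm hardly transcribe, and their RNA is largely what was left from spermatogenesis.

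The sequences below are 29 bases of coding exon around the RRACH nearest to the typical midpoint of the peak, in capitals. They are shown for the regions of long internal exons with the highest scores, first those with a peak in all 6 samples, then those with peaks in Fts alone, then those with peaks in Fs alone. They are read 5′ to 3′ on the transcript strand from the RefSeq copy of Sscrofa11.1.
TMEM198, all samples, chr15:121556927-121556955, plus strand: agcgggtgctggAGACAcagctgagtgct
CDH23, all samples, chr14:74712462-74712490, plus strand: tcaaccccatccAGACAgtgagcgtgctg
PRR36, all samples, chr2:71327010-71327038, plus strand: gcctcccacacaGGACCctcccctggcca
TRPV4, all samples, chr14:41143413-41143441, plus strand: gaaggcgcccatGGACTcactctttgact
CUX2, all samples, chr14:32557739-32557767, plus strand: ctgacggccctcGGACTttctcactgtcc
RRBP1, all samples, chr17:26094192-26094220, minus strand: aaaagtcagaggGGACCcccaaccaaagc
ZFHX2, all samples, chr7:75575048-75575076, plus strand: aactccacctcaAGACCgacaaacatgct
NCL, Fts, chr15:132171110-132171138, minus strand: tgccaagaaagaAGACAgtgatgaggaag
LOC102162296, Fts, chr6:95350646-95350674, plus strand: cgtgggggtgggGGACTtcaggctgcgcc
AMOT, Fts, chrX:92630354-92630382, minus strand: accagaagatgaGGACTgagggccgccca
HHIPL1, Fs, chr7:120636306-120636334, plus strand: gaagcccttcctGAACAtcagccgggccg
LOC100739325, Fs, chr3:56531299-56531327, minus strand: cggcatggtgcgGGACTacgtgcgccaga
IGFN1, Fs, chr10:23644965-23644993, plus strand: cctctggagctgGAACCagttatggggat
The form GGACT stood nearest to the midpoint in TRPV4, CUX2, LOC102162296, AMOT and LOC100739325. The motifs in capitals are not all at the centre of the peak. Their distance from the midpoint ran from 9 bases in RRBP1 and LOC102162296 to 118 in LOC100739325 and 121 in IGFN1. In TMEM198, CDH23 and HHIPL1 the motif was the only RRACH of the region. The region of JPH2, also with a peak in all 6 samples, held no RRACH and is not shown.

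Long internal exons made up 9.87% of the internal exons of their transcripts, 3687 of them against 33656 short ones in 2732 transcripts. In each sample a larger share of long than of short exons held a peak. Of the long exons, 8.25%, 11.0% and 10.7% held one in Fs 1 to 3, and 15.1%, 20.1% and 18.6% in Fts 1 to 3. For short exons the shares were 2.68% to 3.44% in Fs, and 3.84% to 4.73% in Fts. A long exon mostly held a single peak, and only 7 to 9 long exons in Fs and 17 to 22 in Fts held more than 1.

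Per length of sequence, the outcome depended on what was counted. Counted as peaks, long exons had fewer per Mb of eligible CDS than short ones. The 3 Fs samples had 97.5, 130.1 and 126.0 peaks per Mb in long exons and 197.5, 253.0 and 251.5 in short exons. The Fts samples had 181.2, 239.5 and 223.2 in long and 283.0, 348.1 and 339.6 in short exons. The long-to-short ratio of peaks per Mb was thus below 1 in 6 of 6 samples, with a mean log2 ratio of -0.79 ± 0.22 (SD, n = 6; p = 0.031 by a two-sided exact sign test, which cannot go lower with 6 samples). Counted as bases under a peak, long exons came out higher. Peaks covered 5.47%, 6.96% and 6.42% of the eligible bases of long exons in Fs, against 2.68%, 3.39% and 3.30% of those of short exons. In Fts they covered 13.6%, 19.9% and 18.1% of long and 4.23%, 5.45% and 5.25% of short exons. The mean log2 ratio of covered bases was 1.395 ± 0.43 (SD, n = 6), with all 6 samples above 0 (p = 0.031 by the same exact test). Over the 8 tests made across the 6 samples, both p-values were 0.05 after Benjamini-Hochberg adjustment. The test counts 6 samples although they come from 3 boars, and over the 3 means of equal-numbered samples an exact sign-flip test cannot go under 0.25. Peaks per Mb depend on exon and peak length, as most peaks stopped at exon ends and a long exon with a peak mostly held 1. The test of peaks per Mb therefore cannot say whether m6A is sparser in long exons, and no conclusion is drawn from it.

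**Figure D1:**
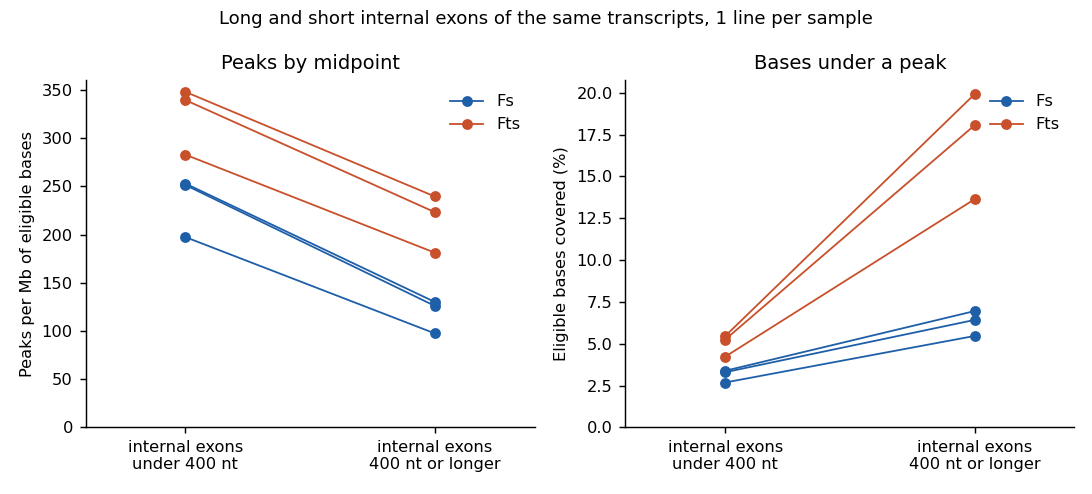
Peaks per Mb (left) and the percent of eligible CDS bases under a peak (right) in internal exons under 400 nt and of 400 nt or longer of the same transcripts, with 1 line per sample. Every line falls on the left and rises on the right, and the Fts lines lie above the Fs lines.

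Most deposited peaks stopped at exon ends. Of the peaks in long exons, 6.02% to 7.07% ran past an end of their exon in Fs and 9.13% to 9.52% in Fts, and in short exons 2.42% to 3.99% did so over all samples. Between 69.8% and 85.4% of the peaks in short exons spanned the whole exon. The median length of a peak in long exons averaged 473.7 ± 23.4 bp over Fs and 654.3 ± 16.5 bp over Fts (SD, n = 3), and the longest had 6309 bp. In short exons the median lay between 125 and 146 bp. When pieces joined over a splice junction were counted as 1 peak, the mean log2 ratio of peaks per Mb was -0.65, still below 0 in 6 of 6 samples.

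Among long exons, the covered share was higher in longer exons in Fts, while in Fs it stayed within 5.92% to 6.59% over the 4 classes of length. Exons of 400 to under 600 nt were covered over 6.23% ± 0.695 (SD, n = 3) of their bases in Fs and 13.7% ± 2.07 in Fts. For exons of 2000 nt or longer the values were 6.38% ± 0.952 in Fs and 19.6% ± 4.44 in Fts. The ratio of Fts to Fs was thus 2.19 in the first class and 3.08 in the last, and 1.37 in exons under 100 nt. The share of exons with a peak was higher in longer exons in both groups. It was 7.99% ± 0.972 in Fs and 14.4% ± 1.89 in Fts at 400 to under 600 nt, and 16.4% ± 3.15 and 27.4% ± 4.59 at 2000 nt or longer, where an exon also offers more bases in which a peak can lie. On both sides of the limit of 400 nt, 3 to 13 peaks per sample lay in the 91 exons of 380 to under 400 nt and 17 to 31 in the 202 exons of 400 to under 420 nt. The share of exons with a peak was 4.40%, 5.49% and 3.30% below the limit in Fs, and 8.42%, 11.4% and 8.91% above it. In Fts it was 8.79%, 8.79% and 14.3% below and 9.41%, 15.3% and 12.9% above, so Fts 3 went the other way. All these exons come from transcripts with an exon of 400 nt or longer. The trend over length was not tested.

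**Figure D2:**
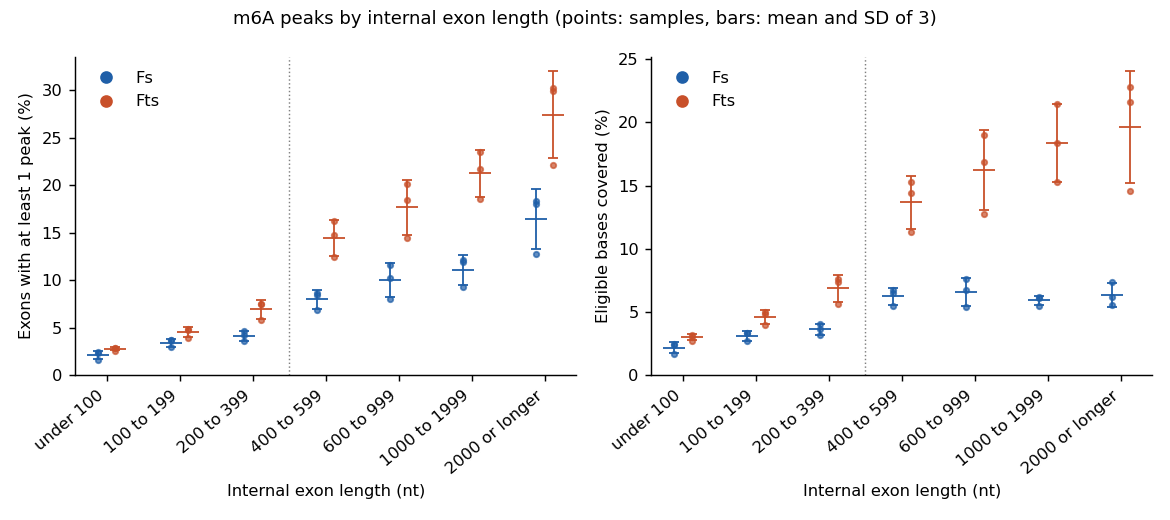
Percent of internal exons with at least 1 peak (left) and percent of eligible CDS bases under a peak (right) by exon length in nt. Points are samples and bars give the mean and SD of 3. The dotted line marks 400 nt, and right of it the class means of coverage run from 5.92% to 6.59% in Fs, and from 13.7% to 19.6% in Fts.

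Long internal exons held a larger part of the coding peaks in Fts than in Fs. Long exons held 376 ± 56.7 peaks in a sample of Fs (mean ± SD, n = 3) and 684.7 ± 96.0 in one of Fts, 1.82 times as many, while the reference peaks in short exons of the same transcripts were 1.38 times as many. Per 1000 coding peaks at the same distance from the CDS ends, the Fs samples held 72.9, 73.5 and 72.4 in long exons and the Fts samples 99.1, 106.9 and 98.1. The 3 Fs samples were close together, and the lowest Fts sample lay above the highest Fs sample. On average Fts exceeded Fs by 28.4 ± 4.31 (SD of 3 pairs), with the same direction in the 3 pairs of equal number (p = 0.25 by a two-sided exact sign-flip test, the floor for 3 pairs here and in every comparison of Fts with Fs below). The log2 ratio of long to short exons also differed between the groups without overlap. For peaks per Mb it was -0.99 ± 0.03 in Fs against -0.60 ± 0.05 in Fts, and for covered bases 1.01 ± 0.04 and 1.78 ± 0.09 (SD, n = 3; exact sign-flip p = 0.25 for both differences). The number of cells that carry an mRNA and the amount of RNA per cell were not measured and cannot be told apart here. Their part in the peak counts, like that of the pull-down and of read depth, was not tested.

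Peaks in Fts also took up more of their exon. The share that spanned a whole long exon was 21.9%, 16.1% and 15.7% in Fs, as opposed to 43.4%, 50.3% and 46.5% in Fts. Peaks lying wholly inside a long exon made up 22.8% ± 3.13 (SD, n = 3) in Fs and 11.3% ± 0.888 in Fts. For the rest, which reached 1 exon end, the shares were 59.3% ± 0.777 and 42.0% ± 3.18. In each of these classes the groups did not overlap. In short exons the share of whole-exon peaks was 70.5% ± 0.726 in Fs and 83.3% ± 2.63 in Fts.

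The score of a peak is the authors' MACS score against the input. It was taken to grow as the p-value of the peak falls, and so with both enrichment and read number. The sources used here state neither this nor the scale of the score. Scores are therefore compared with each other and not turned into p-values. In Fs the peaks of long exons had median scores of 11.98, 10.85 and 10.775, close to the 10.7, 11.1 and 10.4 of the reference peaks. In Fts the medians were 19.0, 26.9 and 20.5 in long and 12.7, 14.8 and 12.05 in short exons. The median was higher in long exons in 5 of 6 samples, by 4.70 ± 5.04 on average (SD, n = 6; p = 0.219 by the exact sign test). Scores of 50 or more were found for 17.5% ± 2.14 of the long-exon peaks in Fs and 32.4% ± 5.57 in Fts, against 14.2% ± 1.03 and 21.0% ± 3.23 of the reference peaks (SD, n = 3). This share was higher in long exons in all 6 samples, by 7.30 percentage points on average (p = 0.031 by the exact sign test, adjusted 0.05). The difference ran from 1.24 to 5.98 points in Fs, and from 8.79 to 13.7 points in Fts.

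Within long exons, bases far from an exon junction were covered more than bases near one. At 200 nt or more from both exon ends, 5.62%, 7.20% and 6.46% of the bases were under a peak in Fs and 14.5%, 21.8% and 19.6% in Fts. Under 100 nt from the nearer end the values were 5.08%, 6.44% and 6.10% in Fs and 12.05%, 16.6% and 15.2% in Fts. The difference was positive in all 6 samples and averaged 2.27 percentage points (p = 0.031 by the exact sign test, adjusted 0.05). It was 0.357 to 0.761 points in Fs and 2.43 to 5.10 points in Fts. Longer exons hold most of the distant bases, and within exons of 1000 nt or longer the difference was 1.03 to 1.59 points in Fs and 1.33 to 4.95 points in Fts. Along the CDS as a whole, cut into 3 equal parts, 35.9% to 40.2% of the peaks of a sample lay in the first part, 40.3% to 43.4% in the middle and 16.4% to 22.7% in the last, and the eligible bases of long exons were spread as 35.7%, 42.2% and 22.05%.

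**Figure D3:**
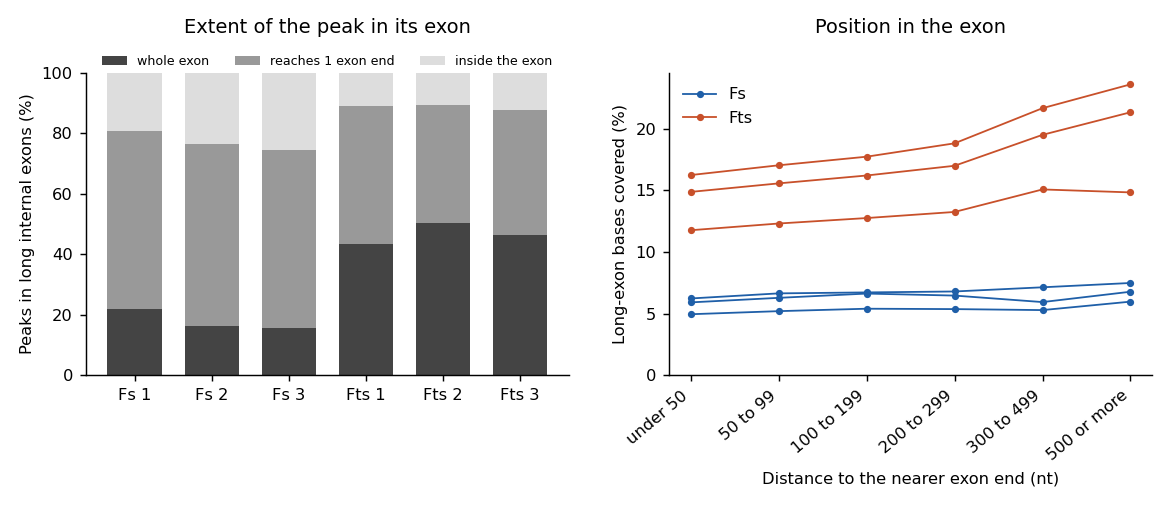
Left, percent of the peaks in long internal exons that span the whole exon, reach 1 exon end or lie inside the exon, by sample. Right, percent of long-exon CDS bases under a peak by distance in nt to the nearer exon end, with 1 line per sample. Whole-exon peaks hold 15.7% to 21.9% in Fs and 43.4% to 50.3% in Fts, and the Fts lines rise away from the exon ends.

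The motif was counted on the transcript strand in covered and uncovered bases of the same long exons. RRACH started at 16.5 ± 0.868 positions per kb in covered and 15.9 ± 0.307 in uncovered bases (SD, n = 6). The difference of 0.590 ± 0.631 per kb was positive in 5 of the 6 samples (p = 0.219 by the exact sign test). It was -0.193, 0.347 and 0.0170 per kb in Fs and 1.42, 1.03 and 0.916 in Fts, without overlap, and this difference between the groups was not tested. GGACT was the RRACH nearest to the midpoint in TRPV4, CUX2 and AMOT above. It started at 1.07 ± 0.0414 positions per kb in covered and 0.994 ± 0.0497 in uncovered bases. The covered value was also higher in 5 of the 6 samples (exact sign test, p = 0.219). All eligible bases of long exons together held 15.5 RRACH and 1.07 GGACT per kb. Of windows of 200 bases around a midpoint, 18.0% to 21.4% held GGACT in Fs and 18.5% to 20.0% in Fts, against 18.1% of all windows of 200 bases in long exons, and RRACH was in 88.7% to 94.1% of them against 93.1%.

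Covered bases were poorer in G and C than uncovered bases of the same exons. The GC content was 52.7% ± 1.31 in covered and 53.8% ± 1.13 in uncovered bases (SD, n = 6). The difference of covered minus uncovered bases lay between -2.82 and -0.243 percentage points over the 6 samples (p = 0.031 by the exact sign test, adjusted 0.05). Restricted to scores of 50 and above, RRACH was 2.32 ± 1.32 per kb more frequent in covered bases, with the same sign in all 6 samples (exact sign test, p = 0.031). Covered bases then held 16.1 ± 1.18 RRACH per kb and uncovered bases 13.8 ± 2.20, against 16.5 and 15.9 over all scores. The mean covered value was thus not higher at scores of 50 and above, and the mean uncovered value was lower. Uncovered bases held 10.9, 12.6 and 12.1 per kb in Fs at this limit, against 15.4, 16.2 and 15.7 over all scores. In Fts they held 15.4, 16.1 and 15.7, against 16.02, 15.9 and 16.1. The difference was 3.84, 3.96 and 2.44 per kb in Fs and 1.28, 0.925 and 1.497 in Fts. Fs was thus above Fts, the reverse of the order over all scores. Fewer peaks entered at this limit, so other bases were compared than over all scores. In 100 bases around the midpoint, over all scores, the difference was -0.027 per kb. The mean difference in GC content at scores of 50 and above was -2.20 percentage points, and its part in the motif count was not tested.

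A region is a stretch covered by overlapping peaks of any of the 6 samples. Of 1359 regions in long exons, 523 had a peak in 1 sample and 55 in all 6. Peaks in all 3 Fts and no Fs sample were found in 185 regions (13.6%), and in 6.34% of all 29713 regions of the series. The reverse was true of 36 regions (2.65%), against 3.71% of all regions. Peaks in all 6 samples were in 4.05% of the long-exon regions and 3.5% of all regions. Of the 170 genes with an Fts-only region, 122 had a peak elsewhere on the gene in at least 1 Fs sample, and 64 had a peak in a short exon in all 3 Fts samples. Of the 36 genes with an Fs-only region, 16 had any peak in Fts.

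Among the regions with peaks in all 6 samples, 8 were taken by their lowest score. In TMEM198, a membrane protein gene of Wnt signaling, a region of 322 bp in exon 3 of 5 (chr15:121556846-121557167) had scores of 539.7, 454.9 and 390.5 in Fs and 469.2, 725.9 and 327.7 in Fts. The groups overlapped there. CDH23, a cadherin of hair cells, had a region of 344 bp in exon 12 of 33 with scores of 258.8 to 465.6 in Fs and 263.9 to 408.6 in Fts, also overlapping. In TRPV4, a calcium-permeable channel opened by warmth and osmotic swelling, scores in exon 2 of 16 were 116.3, 582 and 357.0 in Fs and 255.4, 252.0 and 281.1 in Fts. JPH2, which ties the plasma membrane to the endoplasmic reticulum, had scores of 403.6, 504.7 and 489.6 in Fs and 119.3, 447.8 and 310.6 in Fts, and the piece of exon under the peak was as short as 11 bp in Fts 2.

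The same exon could differ in either direction between the groups. PRR36, a proline-rich protein gene, had scores of 1859.9, 1912 and 1542 in Fs and 282.5, 169.2 and 150.7 in Fts over a region of 1792 bp in exon 5 of 6 (chr2:71326179-71327970). All 3 Fs samples lay above all 3 Fts samples. RRBP1, a ribosome-binding protein of the rough endoplasmic reticulum, went the other way, with 142.0, 100.4 and 178.9 in Fs and 414.7, 525.5 and 487.0 in Fts in its exon 2 of 2209 nt. Peaks covered 99.8% of that exon in Fs 2, 77.6% in Fs 3 and all of it in the other samples. In CUX2, a homeodomain transcription factor gene, the scores were 339.4, 115.1 and 110.7 in Fs and 469.5, 376.3 and 479.3 in Fts, and in ZFHX2, a zinc finger homeobox gene, they overlapped, at 79.2 to 165.9 in Fs and 98.1 to 104.8 in Fts. Of the 54 long exons with a peak in all 6 samples, the highest score was above all Fs samples in the 3 Fts samples in 11 (20.4%) and below them in 10 (18.5%). The 99 short exons of the same kind gave 14.1% and 19.2%. The covered share of the exon was higher in all 3 Fts samples in 9 of the 54 (16.7%) and lower in 4 (7.41%), against 6.06% and 4.04% of the short exons.

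Among the 6 leading regions of each kind, taken by score, those in Fts alone had higher scores than those in Fs alone. They were the highest of 185 regions in Fts alone and of 36 in Fs alone, so their scores do not compare the whole sets. NCL, which encodes the nucleolar protein nucleolin of ribosome assembly, had scores of 1948, 2504 and 2367 over the whole of exon 3 of 14, an exon of 487 nt (chr15:132170933-132171419), and no peak there in Fs. LOC102162296, annotated as a mitochondrial transferase of ketone body use, had 2313, 972.3 and 3100 in exon 2 of 8. The score 3100 recurred in 178 peaks of the 6 lists, with only 6 peaks above it, and may be a ceiling of the score, so it is no measured order. AMOT encodes angiomotin, a scaffold of cell junctions and Hippo signaling, and had 955.3, 1722 and 1419.5 over the 934 nt of exon 3. SPTBN1, a spectrin of the membrane skeleton, had 555.7, 783.7 and 778.1 over the 757 nt of exon 15 of 35. RPAP2, a phosphatase of RNA polymerase II, had 723.8, 544.8 and 726.8, and ARHGEF2, a microtubule-bound activator of RhoA, had 629.9, 669.0 and 1593. In 4 of these 6 regions, those of NCL, AMOT, SPTBN1 and RPAP2, the peaks of all 3 Fts samples spanned the whole exon.

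In Fs alone, the highest scores were those of HHIPL1, a gene related to the hedgehog-binding protein HHIP, with 147.4, 121.8 and 77.0 in exon 2 of 9 (chr7:120636206-120636481). LOC100739325, annotated as the tyrosine kinase ZAP-70, had 85.8, 65.0 and 24.7 in exon 3 of 14. IGFN1, an immunoglobulin-like protein of the muscle Z-disc, had 79.2, 58.5 and 43.2 in a region of 2942 bp of exon 12, an exon of 4617 nt. The longest peaks there had 2057, 2191 and 2191 bp. SETD5, a chromatin regulator, had 20.9, 52.9 and 60.4 in a piece of 45 bp. ZHX2, a transcriptional repressor, had 7.40, 52.9 and 82.4, and KLHL31, a kelch protein of muscle, had 4.85, 51.7 and 51.7. None of these 6 regions covered its whole exon, and their shares of the exon ran from 9.55% to 72.5%.

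**Figure D4:**
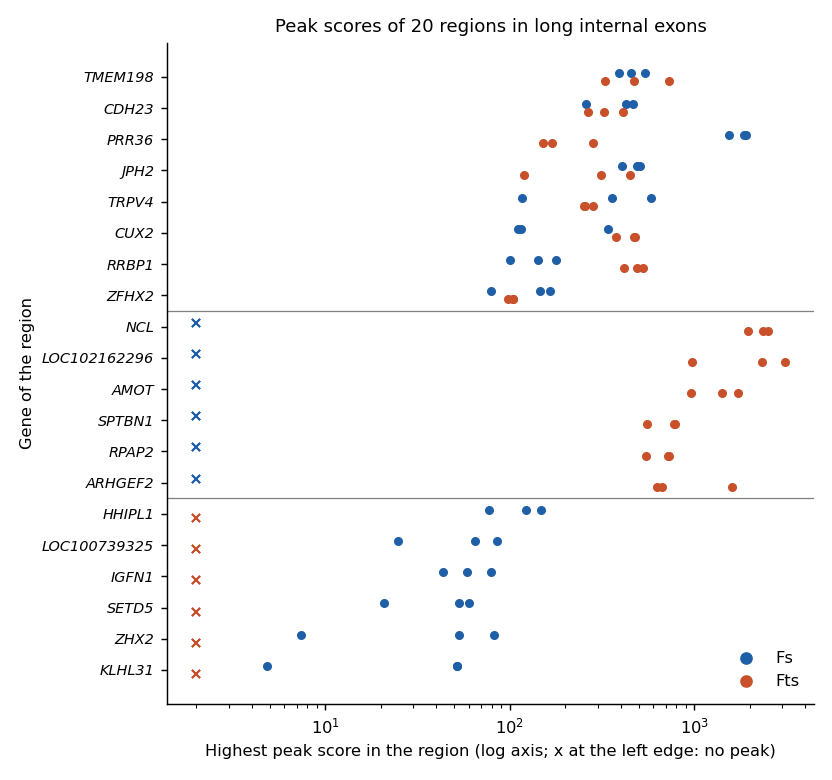
Highest peak score of each sample (log axis) in 20 regions of long internal exons, with Fs in blue and Fts in orange; a cross at the left edge means no peak. From top to bottom, 8 regions have peaks in all 6 samples, 6 in Fts alone and 6 in Fs alone, and the scores of Fts-only regions lie between 544.8 and the recurring top value of 3100.

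Counted by gene, 1156 genes had at least 1 peak in a long internal exon, 394 of them a single peak in a single sample and 68 a peak in all 6 samples. In 166 genes (14.4%) each Fts sample had more such peaks than any Fs sample, and in 34 (2.94%) fewer. Over all peaks and all 11651 genes with a peak, the shares were 9% and 5.35%. In the short exons of the same transcripts they were 11.1% and 5.36% of 1661 genes. The 12 genes with the most peaks in long exons held 148 peaks, 4.65% of all.

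Among these 12 genes CEP350, a centrosomal protein that anchors microtubules, came first with 1, 2 and 1 peaks in Fs against 4, 5 and 4 in Fts, in 5 of its 6 long internal exons. Its exon 10 of 659 nt (chr9:121632553-121633211) had scores of 12.8 and 6.15 in 2 Fs samples and of 187.6, 278.6 and 323.3 in Fts. KMT2D, a histone H3 lysine 4 methyltransferase, had 2 peaks in each Fs sample and 2, 4 and 3 in Fts, so that the groups touched. SPEN, a transcriptional repressor of Notch targets and of the inactive X, had 2, 1 and 2 peaks in Fs and 4, 2 and 3 in Fts, in its exons 3 and 11. Exon 3 of 477 nt had scores of 145.0, 3100 (the recurring top value) and 101.1 in Fts and no peak in Fs, and exon 11, of 7514 nt, had a peak in every sample.

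AHNAK, a very large scaffold protein, had 0, 1 and 0 peaks in Fs and 4 in each Fts sample, in exons of 6441 and 9432 nt. The scores there were modest, between 4.37 and 64.5 in Fts. ZC3H13, a member of the m6A writer complex that holds it in the nucleus, had 1, 0 and 1 peaks in Fs and 3 in each Fts sample, and its exon 12 of 538 nt had scores of 5.82, 410.9 and 465.2 in Fts and no peak in Fs. PRRC2C, an RNA-binding protein that assists translation, had a single peak per Fs sample and 3, 3 and 2 in Fts. BOD1L1, a protector of stalled replication forks, had 1, 1 and 0 and then 2, 3 and 3. In KMT2A, another lysine 4 methyltransferase, counts were 1 in each Fs sample and 3, 2 and 2 in Fts, and scores in exon 4 of 2654 nt were 131.2, 147.2 and 119.4 in Fts against a single Fs score of 4.71. The groups did not overlap in AHNAK, ZC3H13, PRRC2C, BOD1L1 and KMT2A.

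In the other leading genes the groups overlapped or touched. ALMS1, a centrosomal protein of the ciliary base, had 1, 2 and 3 peaks in Fs and 2, 3 and 2 in Fts. In its exon 16 of 1160 nt, however, scores were 25.4, 588.1 and 650.4 in Fts and 12.3 in a single Fs sample. ZNF638, a DNA-binding splicing regulator, had 2, 1 and 1 in Fs and 3, 3 and 2 in Fts, and its exon 24 of 955 nt had scores of 49.6, 86.7 and 50.01 in Fs and 42.3, 7.36 and 34.8 in Fts, each Fs sample being higher. GOLGB1, the Golgi tether giantin, had 1, 2 and 1 and then 3, 1 and 3. ZFHX4, a zinc finger homeobox gene, had 1, 1 and 2 and then 1, 3 and 3.

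Beside AHNAK and CEP350, 6 more genes had the largest mean differences in favour of Fts, and of these JMJD1C alone had a long-exon peak in Fs. AMOT and KMT2C, the latter a lysine 4 methyltransferase like KMT2D, had 3 peaks in each Fts sample, in 3 exons each. In KMT2C the regions, joined over samples, took in the whole of the exons of 1884, 1826 and 1701 nt, with scores of 4.01 to 244.3. ASH1L, a histone H3 lysine 36 methyltransferase, had 4, 2 and 2 peaks, with scores of 125.9, 265.8 and 184.0 in its exon 4 of 4546 nt. ANKHD1 and ANKRD17, a pair of related proteins with many ankyrin repeats, had 2, 3 and 3 and 2, 3 and 2 peaks. JMJD1C, a nuclear protein with a jumonji domain, had 0, 1 and 0 peaks in Fs and 2, 2 and 4 in Fts, in exons of 1682 and 2204 nt. ZC3H13 and SHROOM3 had the same mean difference as ANKRD17 and JMJD1C, which came first by symbol.

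Genes with long-exon peaks in Fs alone had fewer peaks each. IGFN1 had 2, 1 and 1 and LMTK3, a serine and threonine kinase gene, had 1, 1 and 2 in Fs, with none in Fts. A single peak in each Fs sample and none in Fts was found in ANGPTL1 (a secreted angiopoietin-like protein), CACNA1B (a neuronal calcium channel), CCDC141, CEP97 (an inhibitor of cilium formation), CRTC2 (a CREB coactivator) and GRM4 (a glutamate receptor). Of these, CRTC2 had scores of 75.8, 40.1 and 50.9 in a region that, joined over samples, took in the whole of its exon 10 of 407 nt. In ANGPTL1 the scores were 43.7, 68.0 and 17.9, and in CACNA1B they were 6.83, 12.8 and 3.02, near the lowest score in the lists. CRTC2 and CACNA1B had peaks elsewhere on the gene in Fts.

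**Figure D5:**
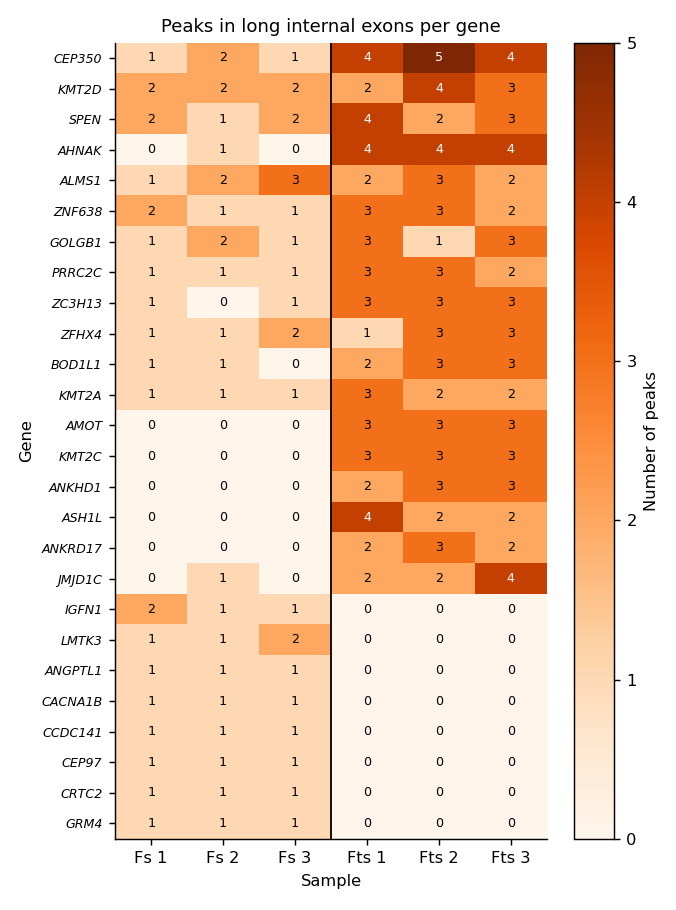
Number of peaks in long internal exons per sample, for the 12 genes with the most and the 8 genes with the largest mean difference in each direction among those whose groups did not overlap. The first 18 genes have up to 5 peaks per sample in Fts, and the last 8 have peaks in Fs alone.

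Lists of genes were counted in the same way. Of 26 genes of chromatin and DNA repair, listed for known large exons and with earlier results of these data known, 25 had a long internal exon, 18 had a peak in one and 7 had more in each Fts than in any Fs sample, with none the other way, beside 14.4% and 2.94% of all 1156 genes. These were KMT2A, KMT2C, NSD1, CHD6, BOD1L1, PRRC2B and PRRC2C. The list is wider than its name, since PRRC2A, PRRC2B and PRRC2C are RNA-binding proteins and SRRM2 is a splicing factor. NSD1, a lysine 36 methyltransferase, and CHD6, a chromatin remodeller, had 1 peak in each Fts sample and none in Fs, and PRRC2B had 1, 2 and 2 and none. Among the other members SETD2 had 0, 1 and 1 peaks in Fs and 3, 4 and 1 in Fts, PRRC2A 1, 0 and 1 and 2, 2 and 0, and CHD7 0, 0 and 1 and 0, 2 and 1. RIF1, which steers double-strand break repair, had a peak in all 3 Fs samples and 0, 0 and 1 in Fts, and for TET3, which oxidises 5-methylcytosine in the zygote, Fts counts were 1, 0 and 0 after 1 in each Fs sample. The median difference of Fts minus Fs was 1 peak for the 18 genes and 0.333 for all 1156 genes. The listed genes and all genes are not alike in number of peaks. A single peak was all that 394 of the 1156 genes had, and these could not be apart between the groups. Most of the 18 had at least 3 peaks, so no conclusion on chromatin genes is drawn from these shares.

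Of 20 listed genes of sperm and the germ line, 19 were annotated, 9 had a long internal exon and 3 had a peak in one, with no gene apart between the groups. AKAP3, an anchor of protein kinase A in the fibrous sheath, had 1, 0 and 2 peaks in Fs and none in Fts. FSIP2, another protein of the fibrous sheath with an exon of 9491 nt, and TEX15, a factor of meiosis and transposon silencing, had a single peak in a single Fts sample each. Of 22 genes of the cytoskeleton and centrosome, 19 had a long internal exon and 10 a peak in one, and in CEP350 alone each Fts sample was above every Fs sample, beside the same 14.4% of all genes. PCNT, the centrosomal scaffold pericentrin, had 0, 1 and 0 peaks in Fs and 2, 2 and 1 in Fts, and AKAP9 had none in Fs and 1, 0 and 2. GOLGA4, a golgin, had 2, 1 and 1 in Fs and 1 in each Fts sample. ANK2 and MAP1A had at most 1 peak in any sample.

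Markers of cell types were checked through the peaks on their mRNAs, which need RNA of the gene but do not measure its amount. Of 12 genes of sperm and late spermatids, 1 or 2 had a peak in an Fs sample and 3 or 4 in an Fts sample, with 1 to 2 peaks in all in Fs and 5 to 8 in Fts. PRM1, TNP1, ODF1, AKAP4, SMCP and TSSK6 had no peak in any sample. Of 6 epithelial and Sertoli markers, 0 to 2 had a peak in Fs and 3 or 4 in Fts, with 0 to 2 and 5 to 6 peaks. KRT8 had 3, 4 and 2 peaks and SOX9 1 in each Fts sample, and neither had one in Fs, while EPCAM and AMH had none in any sample. CDH1 had 0, 1 and 1 peaks in Fs and 0, 0 and 1 in Fts. For KRT18 the counts were 0, 0 and 1 in Fs and 2, 1 and 1 in Fts. Of 6 leukocyte markers, 0 or 1 had a peak in Fs and 1 or 2 in Fts. Their part in the larger number of long-exon peaks in Fts was not tested.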

How the data were processed

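MeRIP-seq peak lists of 3 Fs and 3 Fts samples were analysed. The authors trimmed reads with cutadapt (1.9.3), aligned them to susScr11 with Hisat2, called peaks per sample with MACS against the input of that sample and kept those on mRNAs. The deposited value of a peak is the authors' MACS score, and the lowest was 3.02. The scale of the score, the MACS version and the threshold are not given in the sources used here. The authors' list of sites differing between Fts and Fs was not used.

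Peaks were placed on NCBI RefSeq Sscrofa11.1 (Annotation Release 106), the assembly that UCSC names susScr11, by their midpoint, on the longest coding transcript of the same-strand gene with the largest exon overlap. Chromosome names and exon starts were checked against the peaks. Eligible bases were those of internal exons more than 100 nt from both CDS ends, in transcripts with a long internal exon and a peak in any sample. The peak and covered-base measures were run on simulated peaks, each kept inside 1 exon and shorter than the typical peak in long exons. That run does not cover peaks that span an exon or are split at its ends. Python 3.11.15, scipy 1.17.1 and pyfaidx 0.9.0.4 were used.

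Long and short exons were compared by exact sign tests over 6 samples, Fs and Fts by exact sign-flip tests over pairs of equal number, after the paired design of the study. By the methods the ejaculates of each boar were split into an Fs and an Fts part. The labels do not say that equal numbers share a boar, nor whether ejaculates were pooled, so p-values speak only of these samples. The sign tests use the direction in each sample and not the spread, which the SDs give. Genes were named when they were among the 12 with the most peaks, the 8 with the largest difference in each direction without overlap of the groups, or in a fixed list with at least 3 peaks; regions were named by score, 8 with peaks in all 6 samples and 6 for each group. Ties were taken in order of symbol. FSIP2, TEX15 and SHROOM3 lie outside this rule and were named after their values were seen. Markers of cell types come from lists of their own. The members and gene lists were chosen with earlier results of these data known. Alternatives were a score of at least 20 or 50, exon limits of 300 or 600 nt, 200 nt from CDS ends, joined peaks, other transcripts, reference exons and motifs, and omission of each replicate.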

Additional observations from a re-analysis of the deposited data

How the results depend on the processing

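Restricted to scores of 50 and above, peaks per Mb gave a log2 ratio of -0.34, below 0 in 4 of the 6 samples (p = 0.688 by the exact sign test), and the cause was not tested. Leaving out each replicate in turn gave log2 ratios between -0.82 and -0.78 for peaks per Mb and between 1.37 and 1.41 for covered bases, the share with a score of 50 or more differed by 7.22 to 7.42 points, the position in the exon by 1.93 to 2.66 points and GC content by -1.32 to -0.898 points, all without a p under 0.05 because 4 samples cannot go below 0.125 in an exact test. Without peaks under 100 bp the median score was higher by 4.58 on average (exact sign test, p = 0.031), by 0.06 to 1.15 in Fs and 6.91 to 11.33 in Fts. RRACH differed by 2.32 per kb at a score of at least 50 and by -0.027 in 100 bases around the midpoint, and GGACT by 0.201 in those 100 bases, with the same sign in all 6 samples. At scores of at least 20 and 50, regions in Fts alone numbered 119 and 66, in Fs alone 8 and 3, and in all samples 23 and 12, as fewer peaks entered. At a score of at least 50, genes higher in Fts numbered 68 and in Fs 3. Without 1 replicate, regions in Fts alone were 242 to 293, in Fs alone 60 to 75, in all samples 73 to 89, and genes higher in Fts 219 to 258 and in Fs 61 to 70, since fewer samples had to match. Fitted with no replicate block, the differences of Fts minus Fs were unchanged in size, with 28.4 peaks per 1000, 0.40 and 0.77 for the log2 ratios and 308.7 peaks (exact permutation of 3 against 3, p = 0.1, the smallest it allows). Samples of equal number did not deviate together over all regions (correlations of -0.0191 to -0.00395), so the pairing is that of the study's stated design alone. The 4 differences of Fts minus Fs kept their direction in all pairs under every alternative run. No count was adjusted for read depth, which differs between libraries and limits what a missing peak can say.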
